A study of Rattus norvegicus with 6 samples.

Results

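The nuclear-encoded subunits of the mitochondrial respiratory chain and ATP synthase, with their like-named assembly and regulatory factors, were examined as a set in the rat kidney cortex. Members were the genes of the RefSeq rat gene table (assembly GRCr8) whose symbol starts with Nduf, Uqcr, Cox4, Cox5, Cox6, Cox7, Cox8 or Atp5, plus Sdha, Sdhb, Sdhc, Sdhd and Cyc1, matched to array probes by transcript accession. The table held 228 such genes, of which 108 were pseudogenes. A probe was found for 83, among them 1 pseudogene, and 82 were measured, out of 11965 genes tested and 15284 with a probe. Cox8c did not rise well above background on any of the 6 arrays. The 38 members that are not pseudogenes and had no probe here included Cyc1 (the haem-bearing cytochrome c1 of complex III), Cox7a1, Ndufa3, Ndufa8, Ndufa13, Ndufs6, Ndufa4l2 and Atp5mc3.

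The study gave male Sprague-Dawley rats (Crl:CD(SD), 5 weeks old at purchase) either water or nitrilotriacetic acid trisodium monohydrate (NTA, a metal-chelating aminopolycarboxylate), the latter at 1000 mg per kg per day, and both for 4 weeks. Renal cortex from 3 animals per group was hybridised to 1-colour Agilent arrays, 1 array per animal, and the series calls the animals biological replicates. All rats ate the same basal diet. The model is a single dose and a single time point in a bulk piece of cortex, in which fewer cells of a type and less RNA per cell cannot be told apart.

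A level here is the log2 processed signal of a gene's brightest probe minus the array's 75th percentile, and a difference is NTA minus water on that log2 scale. Levels of different genes are not compared with each other, because probes differ in brightness. Between 68.4% and 73.5% of probes were well above background on an array, and 2 to 4 probes were saturated. All 10 proximal tubule markers tested were present on every array, with a median difference of -0.0024. The arrays lay on 3 slides. Slide 1 held water 2 and water 3, slide 2 held NTA 1 and NTA 3, and slide 3 held water 1 and NTA 2 and was scanned on another day, so a comparison within that shared slide rests on 1 array per group. On the other scan day each slide held 1 group, so slide and treatment cannot be told apart there.

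The respiratory chain passes electrons from NADH (through complex I) and succinate (through complex II) by way of coenzyme Q to complex III, cytochrome c and complex IV, where oxygen is reduced. Complexes I, III and IV pump protons across the inner mitochondrial membrane, and complex V (ATP synthase) uses that gradient to make ATP. The kidney cortex is rich in mitochondria because proximal tubules reabsorb solutes by active transport, which these complexes power.

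NRF1 and GABPA are transcription factors known for binding promoters of many respiratory chain genes, and NRF2 binds antioxidant response elements. Promoter sequences (250 before and 50 after the RefSeq start, GRCr8) were matched for 72 of the 82 measured members and searched on both strands for 3 short motifs, whose matches may overlap each other. The NRF1 core GCGCATGC was found in 10 of 72 members' promoters (13.9%) and in 827 of all 33469 promoters of the table (2.47%), which include those of uncharacterised loci. The ETS motif CCGGAAG, to which GABPA binds, was found in 22 members' promoters (30.6%) and in 8.75% of all promoters. The antioxidant response core TGACNNNGC was found in 9 members' promoters (12.5%) and in 12.1% of all promoters. In all, 4 windows of 60 bases upstream of the start are shown, each from a member described below, because they hold these motifs. Capitals mark the motif and all else is lower case.
Uqcrc1, NRF1 core, chr8:118468158-118468217, plus strand: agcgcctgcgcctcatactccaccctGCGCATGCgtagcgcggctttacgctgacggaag
Ndufs8, ETS motif, chr1:210573699-210573758, minus strand: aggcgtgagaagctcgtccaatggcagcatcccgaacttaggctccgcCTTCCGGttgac
Ndufs1, ETS motif, chr9:72073772-72073831, minus strand: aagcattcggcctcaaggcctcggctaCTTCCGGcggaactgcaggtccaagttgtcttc
Ndufs1, antioxidant response core, chr9:72073606-72073665, minus strand: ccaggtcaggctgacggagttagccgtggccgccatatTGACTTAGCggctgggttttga
Ndufs1, the iron-sulfur subunit at the entry of complex I, held matches to both the ETS motif and the antioxidant response core. In Ndufs8 and in the ETS window of Ndufs1 the motif lies in reverse complement. The genes of the windows shown all had every NTA array above every water array. Cox5a, whose NTA arrays all lay below the water arrays, held 2 matches to the antioxidant response core, which are not shown. A match describes letters and is not evidence of binding. Split by measured difference, of the 27 matched members whose NTA arrays all lay above all water arrays, 3 held the NRF1 core, 7 the ETS motif and 3 the antioxidant response core, against 7, 15 and 6 of the other 45.

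No member of the respiratory chain passed the threshold between NTA and water (limma, Benjamini-Hochberg adjusted p under 0.05 over all genes tested), where 9 of 11965 genes did (0.0752%). At an unadjusted p under 0.05, 9 of the 82 members were higher in NTA and 0 were lower, against 7.76% of all genes higher and 4.51% lower. The members nevertheless leaned one way by a small amount. The difference was above 0 in 71 of 82 members (56.4% of all genes), with a median of 0.085 beside 0.023 over all genes tested. In 31 members (37.8%) every NTA array lay above every water array, against 13.0% of all genes, and in 1 member, Cox5a, every NTA array lay below, against 7.25%. For 78 of the 82 members the 95% interval of the difference lay within 0.5 on either side of 0.

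**Figure D1:**
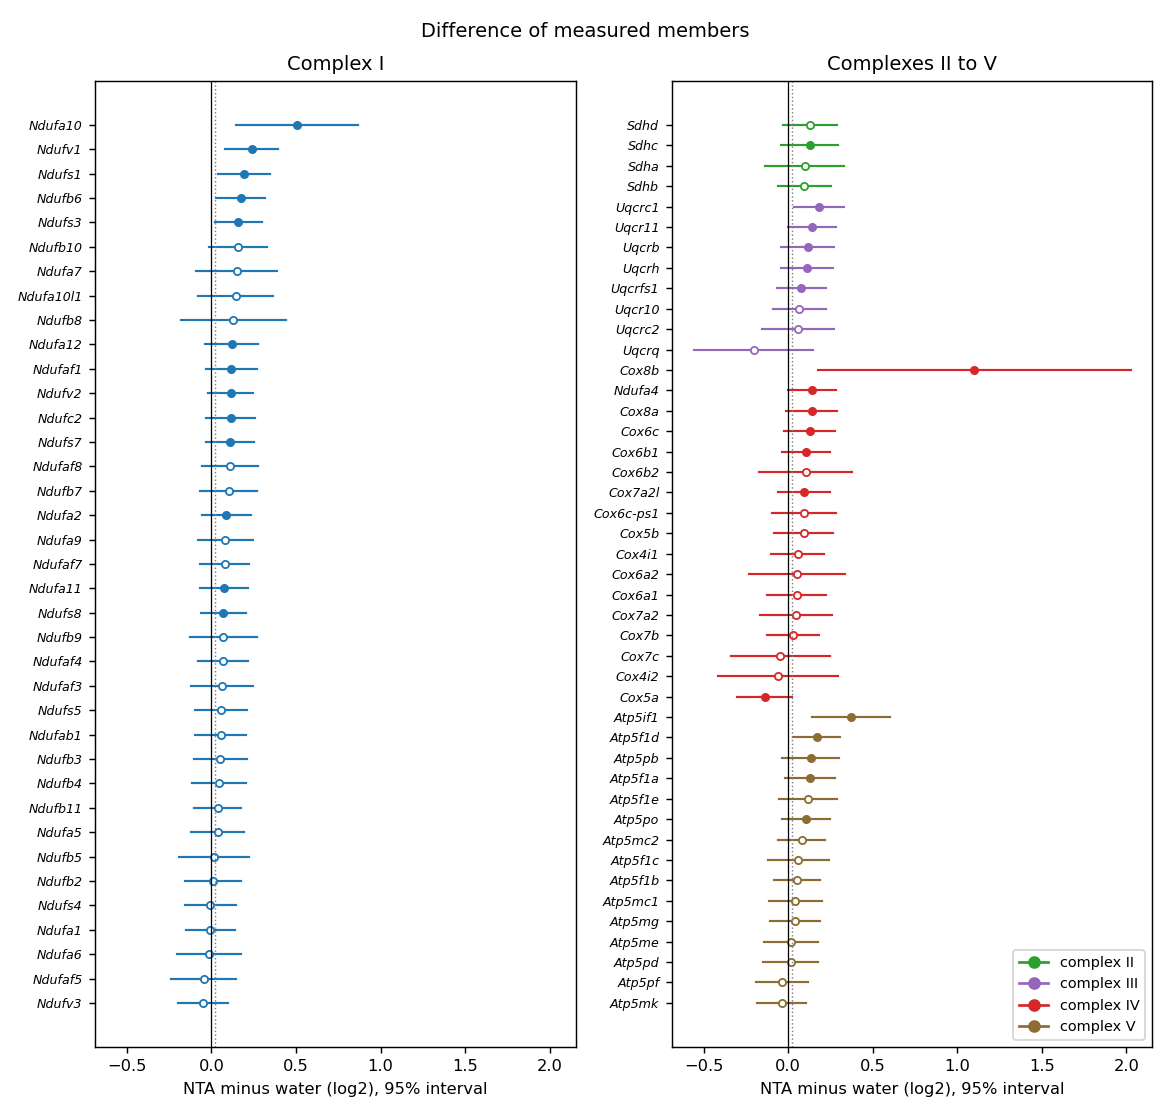
Difference between NTA and water for measured members on the log2 scale, each with its 95% interval, complex I members (assembly factors included) on the left and complexes II to V on the right. Filled points mark members whose 3 NTA arrays do not overlap the 3 water arrays, the dotted line is the median of all genes tested (0.023), and most points lie a little to the right of 0, with Ndufa10, Cox8b and Atp5if1 farthest out.

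The size of this lean moved with the scaling and with 1 animal. Averaged over the 82 members, the level was 5.44, 5.49 and 5.44 in the animals given water and 5.49, 5.62 and 5.54 in those given NTA, so NTA 2 was the highest of the 6. Without NTA 2 the median difference was 0.060, 61 members lay above 0, and 34 had groups that did not overlap with NTA higher (18.9% of all genes). Within the shared slide the median was 0.160, and on the other scan day it was 0.049, with 75 and 56 members above 0 respectively and 54 above 0 in both. After quantile normalization the median was 0.025 (-0.0021 over all genes), 49 members lay above 0, and groups did not overlap in 11 members with NTA higher (9.42% of all genes) and in 7 with NTA lower (9.80%). Scaling by the array median gave 20 and 2 such members (9.12% and 9.63% of all genes), and normexp background correction gave 22 and 1 (14.0% and 7.19%).

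All genes tested were split by level into 4 bins of like size. From the dimmest to the brightest bin the median difference was 0.022, 0.0046, 0.017 and 0.044, and 8.05%, 9.19%, 12.4% and 22.2% of genes had NTA arrays all above water. After quantile normalization the 4 medians were -0.0058, 0.0013, 0.0011 and -0.0073. Of the 82 members, 75 lay in the brightest bin (2991 genes), where 65.4% of genes lay above 0. In the 441 other genes with a level of 5.48 or more, the median was 0.056, 68.9% lay above 0 and 26.3% were so separated. Their median after quantile normalization was -0.019. The 28 dimmest, 27 middle and 27 brightest members had medians of 0.085, 0.110 and 0.065, which became 0.044, 0.042 and -0.029 after quantile normalization. Across the 82 members, which share these 6 arrays, Pearson's r between level and difference was -0.19 and Spearman's rho was -0.054. The part of signal level in the members' lean was not tested beyond these values.

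Complex I oxidises NADH and is built from catalytic core subunits and many accessory subunits. Its 31 measured subunits had a median difference of 0.082, 27 lay above 0, and in 13 the groups did not overlap with NTA higher (13.0% of all genes, and 22.2% of the 2991 brightest). The core subunits Ndufv1, Ndufv2, Ndufs1, Ndufs3, Ndufs7 and Ndufs8 were each higher in all 3 NTA arrays than in any water array, with a median difference of 0.137 over these 6 and a range from 0.071 to 0.238. Their mean level was 5.56, 5.54 and 5.52 in water and 5.67, 5.73 and 5.66 in NTA. The 24 accessory subunits had a median of 0.062, with 20 above 0 and 6 not overlapping, NTA higher in each. That median was 0.031 without NTA 2 and 0.012 on the other scan day. The split into core and accessory subunits follows textbook structure, but it was singled out after the values were seen.

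Ndufv1, which binds NADH and the flavin where electrons enter, was at 6.30, 6.35 and 6.29 in water and 6.56, 6.62 and 6.47 in NTA. The NTA arrays all lay above the water arrays, by 0.24 (SE 0.063, limma adjusted p = 0.275, n = 3 per group), a 1.18-fold difference in signal, and its other probe gave 0.17. Ndufs1 was at 5.10, 5.01 and 4.95 in water and 5.19, 5.24 and 5.21 in NTA, a difference of 0.19 (SE 0.063, limma adjusted p = 0.339), with 0.10 from its other probe. Ndufs3, a core subunit of the peripheral arm, was at 5.43, 5.40 and 5.36 in water and 5.52, 5.60 and 5.54 in NTA. Its difference was 0.16 (SE 0.056, limma adjusted p = 0.356). The iron-sulfur subunits Ndufs7, Ndufs8 and Ndufv2 differed by 0.11, 0.071 and 0.11.

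Within each array, the mean of these 6 core subunits minus the mean of the accessory subunits was 0.0025, -0.084 and -0.090 in water and 0.047, -0.0058 and -0.018 in NTA. Only the change in this quantity between groups can be read, since its size depends on probe brightness. The groups overlapped, since water 1 lay above NTA 2 and NTA 3. The difference was 0.065, or 0.063 after quantile normalization and 0.038 after normexp correction, and its sign turned within the shared slide (-0.0083) while it was 0.10 on the other scan day. After quantile normalization all 6 core subunits stayed above 0, with a median of 0.069, and 3 had groups that did not overlap (9.42% of all genes, NTA higher), while the accessory median was 0.0019 with 12 of 24 above 0.

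**Figure D2:**
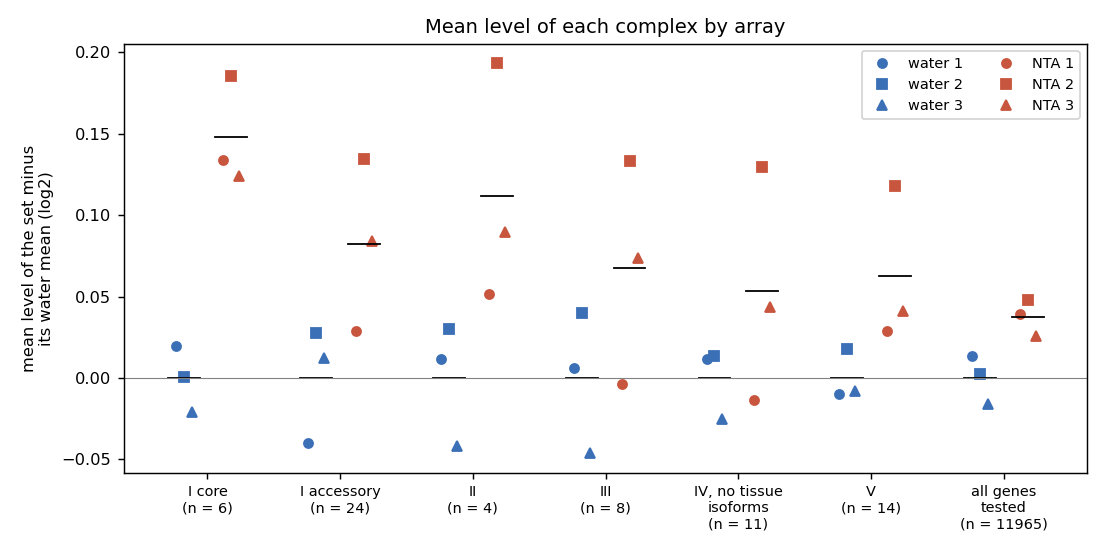
Mean level of each set on each of the 6 arrays, given on the log2 scale relative to the set's own mean over the 3 water arrays. Short lines are group means. The 6 core subunits of complex I show the widest gap between groups, NTA 2 is the highest array in every set of complex members, and for complex III and for complex IV without tissue isoforms NTA 1 lies among the water arrays.

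Among accessory subunits the largest difference was in Ndufa10, a subunit related to nucleoside kinases. It was at 3.85, 3.75 and 3.72 in water and 3.98, 4.54 and 4.31 in NTA. All NTA arrays were higher, though they were spread over more than 0.5, and the difference was 0.51 (SE 0.146, limma adjusted p = 0.296, 1.42-fold). It was 0.69 within the shared slide and 0.41 on the other scan day. Ndufa10 had 1 probe. A like-named copy, Ndufa10l1, differed by 0.14 (SE 0.090, limma adjusted p = 0.568) from the brightest of its 5 probes. Its other probes gave 0.098, 0.21, 0.069 and 0.059. Probe sequences were not used here, so signal shared between these genes cannot be told apart. Ndufb6, of the membrane arm, was at 6.18, 6.13 and 6.10 in water and 6.30, 6.26 and 6.36 in NTA, a difference of 0.17 (SE 0.059, limma adjusted p = 0.349). The brightest accessory probes, Ndufb8, Ndufb3 and Ndufa5, differed by 0.13, 0.051 and 0.036, all with overlapping groups, and the last 2 turned to -0.039 and -0.029 after quantile normalization. The Ndufb8 value was 0.00040 without water 1 and 0.22 without water 3, 0.48 within the shared slide and -0.044 on the other scan day. Ndufv3 had the lowest value of complex I subunits at -0.050, with 4 probes whose mean was 0.016.

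The 6 complex I assembly factors measured named Ndufaf, which build the enzyme and leave it, had a median difference of 0.073, with values from -0.045 (Ndufaf5) to 0.117 (Ndufaf1). Ndufaf1, needed for the membrane arm intermediate, was at -0.63, -0.52 and -0.63 in water and -0.50, -0.44 and -0.48 in NTA, and was the only one of the 6 whose groups did not overlap.

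Complex II (succinate dehydrogenase) links the citric acid cycle to the chain. Its 4 subunits all lay above 0, and the median was 0.111. Sdha, the flavoprotein that oxidises succinate, was at 6.97, 6.79 and 6.72 in water and 6.89, 7.04 and 6.83 in NTA, a difference of 0.097 (SE 0.095). Its groups overlapped, and the difference ran from 0.038 (without NTA 2) to 0.17 (without water 1) when 1 array was left out. Sdhb, the iron-sulfur subunit, differed by 0.095 (SE 0.063), with overlapping groups, and by 0.20 from its other probe. Without water 2 or water 3 that other probe became the brightest of Sdhb and was used instead, and it gave 0.20 or 0.17. The membrane anchors Sdhc and Sdhd differed by 0.13 (SE 0.069) and 0.13 (SE 0.066). Sdhc was at 5.45, 5.47 and 5.45 in water and 5.48, 5.67 and 5.59 in NTA, without overlap. All 4 remained above 0 after quantile normalization, with a median of 0.041 and groups that overlapped in each.

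Complex III passes electrons from coenzyme Q to cytochrome c. Of its 8 measured subunits 7 lay above 0, and the median was 0.094. In 5 the groups did not overlap with NTA higher (13.0% of all genes, and 22.2% of the 2991 brightest). Only 2 of the 8 were so separated with array median scaling or normexp correction (9.12% and 14.0% of all genes), and 1 higher and 1 lower after quantile normalization (9.42% and 9.80%). Uqcrc1, a large matrix-facing core protein whose promoter window is printed above, was at 5.41, 5.33 and 5.43 in water and 5.60, 5.59 and 5.52 in NTA. The groups were apart and the difference was 0.18 (SE 0.060, limma adjusted p = 0.348), similar within the shared slide (0.18) and on the other scan day (0.18). Its second probe gave 0.27. The small subunit Uqcr11 differed by 0.14 (SE 0.058), Uqcrb by 0.11 (SE 0.064) and the hinge protein Uqcrh by 0.11 (SE 0.062). Uqcrfs1, the Rieske iron-sulfur protein, was at 5.91, 5.88 and 5.81 in water and 5.92, 5.98 and 5.93 in NTA. That difference was 0.078 (SE 0.058), and it turned to -0.014 under normexp correction.

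Uqcrq, a small complex III subunit, had the lowest value of all members with all 6 arrays used, but not without water 2. It was at -0.16, 0.086 and -0.38 in water and -0.53, -0.29 and -0.24 in NTA, so the groups overlapped, and the difference was -0.21 (SE 0.143, limma adjusted p = 0.610). It ran from -0.32 without water 3 to -0.088 without water 2, where Cox5a was at -0.12. Uqcr10, the brightest complex III probe, differed by 0.065 (SE 0.064) and by -0.076 after quantile normalization. The median of complex III was 0.027 after quantile normalization, with 6 of 8 above 0.

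Complex IV (cytochrome c oxidase) reduces oxygen, and several of its nuclear-encoded subunits exist as tissue isoforms. The 15 measured subunits had a median difference of 0.055, with 12 above 0. That median was 0.0092 without NTA 2 and 0.121 without NTA 1. This direction did not hold under every scaling: after quantile normalization the median was -0.0034 with 7 of 15 above 0. The 11 subunits that are not tissue isoforms had a median of 0.055, or -0.021 after quantile normalization and 0.015 without NTA 2. Ndufa4, once assigned to complex I and now counted in complex IV, was at 6.74, 6.78 and 6.70 in water and 6.85, 6.86 and 6.92 in NTA. All NTA arrays lay above the water arrays, by 0.14 (SE 0.057, limma adjusted p = 0.414). Cox8a differed by 0.14 (SE 0.061), Cox6c by 0.13 (SE 0.061) and Cox6b1 by 0.11 (SE 0.057), each without overlap. After quantile normalization Cox8a differed by 0.0036 and Cox6b1 by 0.055. The other Cox6c probe gave 0.015, with NTA 1 below every water array. A pseudogene of Cox6c, Cox6c-ps1, differed by 0.092 (-0.18 from its other, dimmer probe), and signal shared between the 2 genes' probes was not examined. Cox4i1, Cox5b, Cox6a1 and Cox7a2 differed by 0.055, 0.090, 0.051 and 0.045, all with overlapping groups, and all 4 turned below 0 after quantile normalization.

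Cox5a, a subunit on the matrix side, was the only member whose NTA arrays all lay below the water arrays. It was at 6.83, 6.90 and 6.85 in water and 6.62, 6.77 and 6.77 in NTA. The difference was -0.14 (SE 0.066, limma adjusted p = 0.465), the second probe gave -0.15, and the value stayed below 0 within the shared slide (-0.064) and on the other scan day (-0.18). Within each array, Cox5a minus the mean of the other 10 subunits was 0.10, 0.18 and 0.17 in water and -0.095, -0.096 and -0.0012 in NTA. The gap between groups on that measure was -0.21.

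The other tissue isoforms lay nearer to 0. Cox4i2, an isoform known from lung, differed by -0.061 (SE 0.144), and the sign turned within the shared slide (0.25) and without NTA 1 (0.065), while its other probe gave 0.041. The muscle isoform Cox6a2 and the testis isoform Cox6b2 differed by 0.051 (SE 0.116) and 0.10 (SE 0.112), and both lay below 0 without NTA 2, at -0.069 and -0.00063. Dimmer probes of Cox6a2 gave 0.066 and 0.42, and one of Cox6b2 gave 0.43. Among all members, 42 had over 1 probe well above background, and in 9 of these the probes differed in sign. Cox7a2l, which takes part in joining complexes III and IV into supercomplexes, was at 4.79, 4.76 and 4.68 in water and 4.84, 4.79 and 4.88 in NTA, a difference of 0.093 (SE 0.061), with groups barely apart.

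Cox8b, the isoform of muscle and brown fat, showed the largest difference of any member. It was at -1.12, -1.07 and -1.93 in water and -0.68, 0.43 and -0.56 in NTA. All NTA arrays were higher, but the spread within each group was wide, and water 3 and NTA 2 stood farthest out. The difference was 1.10 (SE 0.375, limma adjusted p = 0.349, 2.14-fold), with 1.05 from its other probe. It was 0.75 without NTA 2, 0.82 without water 3, 1.55 within the shared slide and 0.88 on the other scan day. Fat and muscle markers were read on the same arrays. Of the 8 fat markers 4 were measured, and none of those separated the groups: Adipoq, Cfd and Ucp1 differed by -0.20, -0.44 and -0.54 and Cidea by 0.41, while Elovl3 and Lep were not above background. Their summed level, relative to the array's 75th percentile on the linear scale, was 1.57 to 2.22 in water and 1.83 to 2.23 in NTA. All 8 muscle markers were measured, with 4 above 0, values from -0.57 to 0.40 and a median of 0.0049. Of these, Myh7 was higher (0.40) and Acta1 lower (-0.43) without overlap, neither past the adjusted threshold. The muscle markers' summed level was 3.85 to 4.29 in water and 3.95 to 4.81 in NTA. The part of such tissue in the Cox8b values was not tested.

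**Figure D3:**
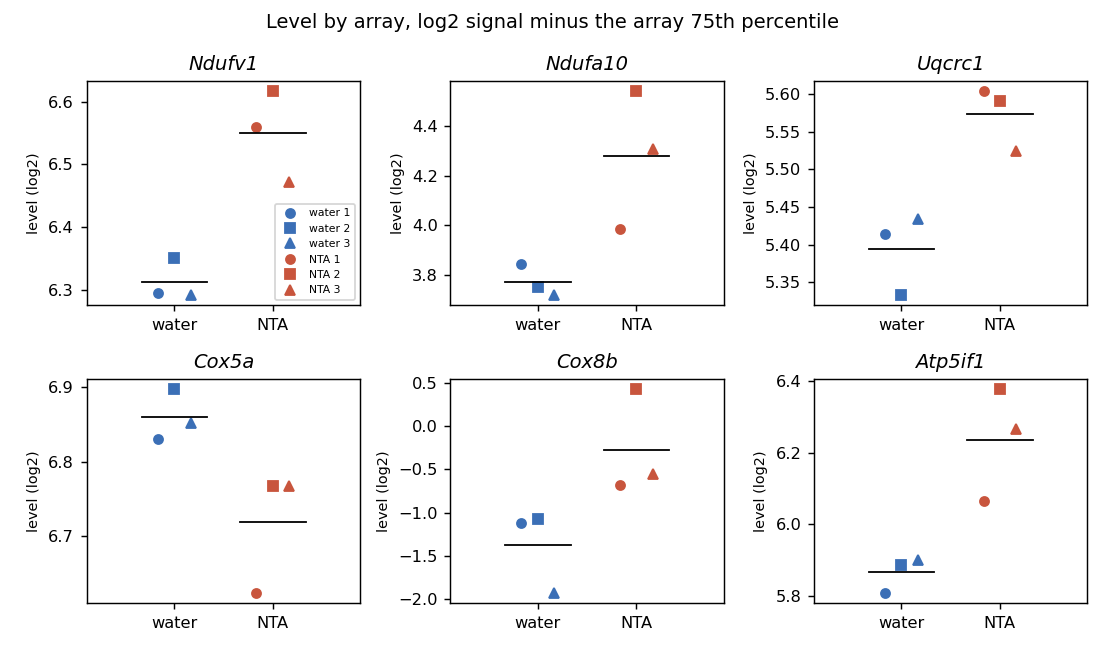
Level of 6 members on each array, as log2 signal minus the array's 75th percentile, with short lines for group means and a separate axis for each gene. The NTA arrays lie above the water arrays for Ndufv1, Ndufa10, Uqcrc1, Cox8b and Atp5if1 and below them for Cox5a.

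Complex V makes ATP in its F1 head, held by a peripheral stalk and turned by a ring in the membrane. Its 14 subunits had a median difference of 0.055, with 12 above 0. In 4 the groups did not overlap with NTA higher (13.0% of all genes, and 22.2% of the 2991 brightest). After quantile normalization the median was -0.029 with 4 of 14 above 0, and groups did not overlap in 1 with NTA higher and 3 with NTA lower (9.42% and 9.80% of all genes). The 5 F1 subunits had a median of 0.117 and all lay above 0. The 4 peripheral stalk subunits had a median of 0.061 and the 5 membrane subunits one of 0.039, with none of the latter separating the groups. After quantile normalization these 3 medians were -0.00082, -0.039 and -0.051.

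Atp5f1d, the delta subunit of the rotating stalk, was at 5.26, 5.31 and 5.27 in water and 5.42, 5.50 and 5.42 in NTA, a difference of 0.17 (SE 0.057, limma adjusted p = 0.349). Atp5f1a, the catalytic-head alpha subunit and the brightest probe of the set, was at 8.67, 8.65 and 8.65 in water and 8.77, 8.86 and 8.72 in NTA. The groups were apart, with a difference of 0.13 (SE 0.061), and 0.050 from its other probe. The Atp5f1a difference was 0.025 after quantile normalization. Atp5f1b, the beta subunit that carries the catalytic sites, differed by 0.050 (SE 0.055), with overlapping groups. Of the peripheral stalk, Atp5pb and Atp5po differed by 0.13 and 0.11 without overlap, and Atp5pd and Atp5pf by 0.015 and -0.037. The c-ring genes Atp5mc1 and Atp5mc2 differed by 0.042 and 0.078, and the small membrane subunits Atp5me, Atp5mg and Atp5mk by 0.017, 0.039 and -0.040.

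Atp5if1, the small protein that blocks ATP hydrolysis by the synthase when the proton gradient collapses, had the smallest p of all members. It was at 5.81, 5.89 and 5.90 in water and 6.06, 6.38 and 6.27 in NTA. The lowest NTA array lay above the highest water array, and the difference was 0.37 (SE 0.095, limma adjusted p = 0.273, 1.29-fold). It was 0.57 within the shared slide, 0.27 on the other scan day and 0.31 after quantile normalization. Within each array, Atp5if1 minus the mean of the 14 complex V subunits was -1.22, -1.17 and -1.13 in water and -1.01, -0.78 and -0.82 in NTA, a gap of 0.31 between groups.

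**Figure D4:**
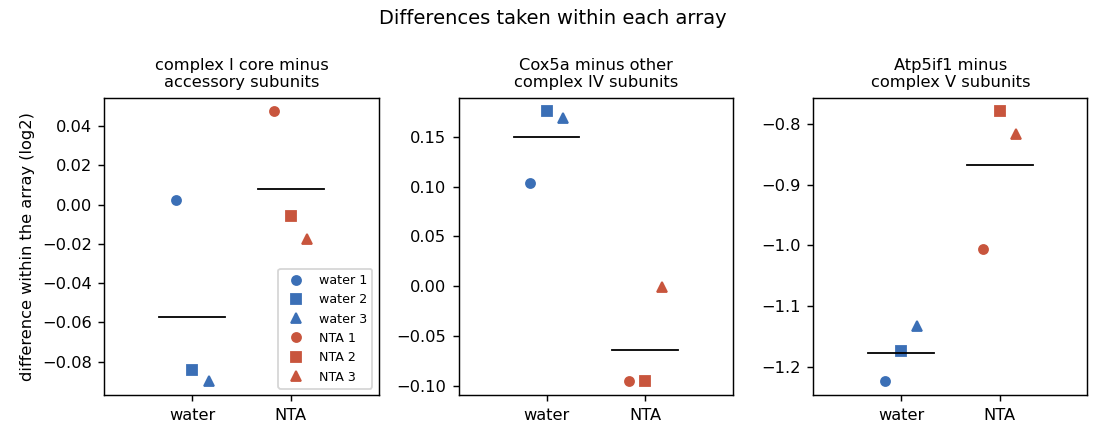
Differences taken within each array on the log2 scale, for the 6 complex I core subunits minus the accessory subunits, Cox5a minus the other complex IV subunits that are not tissue isoforms, and Atp5if1 minus the complex V subunits, with short lines for group means. The NTA arrays do not overlap the water arrays in the middle and right panels, and they overlap on the left, where water 1 (0.0025) lies above NTA 2 (-0.0058) and NTA 3 (-0.018). The groupings were chosen after the values were seen.

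Genes that assemble, feed and regulate the chain were read from the same fit. None of the lists held a gene past the threshold. Of 42 assembly factors outside the naming rule, 34 lay above 0, with a median of 0.074, and 16 had NTA arrays all above water (13.0% of all genes). Of the 42, 7 had an unadjusted p under 0.05 and were higher (7.76% of all genes). The largest of these was Cox19, a copper-handling factor of complex IV assembly, at 4.18, 4.33 and 4.16 in water and 4.70, 4.55 and 4.58 in NTA (difference 0.39, SE 0.079, limma adjusted p = 0.216). The brightest probes, Tmem242 and Ecsit, differed by 0.0087 and 0.064. Iron-sulfur cluster assembly had 15 of 17 above 0 and a median of 0.108, with 6 higher and 1 lower without overlap (13.0% and 7.25% of all genes). Fdx2, a ferredoxin of that pathway, was at 3.74, 3.68 and 3.74 in water and 3.94, 3.97 and 3.90 in NTA (difference 0.22, SE 0.055, limma adjusted p = 0.270).

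Electron carriers and the dehydrogenases that feed coenzyme Q had 16 of 21 above 0 and a median of 0.100. Cycs, the cytochrome c that connects complexes III and IV, was at 6.74, 7.08 and 6.92 in water and 7.14, 7.18 and 7.29 in NTA, without overlap (difference 0.29, SE 0.103, limma adjusted p = 0.357), while Etfa, of the electron transfer flavoprotein, differed by -0.16 with its NTA arrays all below water. Citric acid cycle and pyruvate dehydrogenase genes had 15 of 18 above 0 and a median of 0.080. Pc and Idh2, the brightest of them, differed by 0.29 and 0.058. The carriers for ADP and phosphate and the porins had 5 of 7 above 0 and a median of 0.068, with Vdac1 at 0.21 and Vdac2 at -0.14, both without overlap. Mitochondrial ribosomal proteins had 54 of 66 above 0 and a median of 0.080, and 26 had NTA arrays all above water (13.0% of all genes). Cytosolic ribosomal proteins had 60 of 81 above 0 and 26 so separated. Their median was 0.043, or -0.028 after quantile normalization. Such a lean was thus not particular to the respiratory chain, where 31 of 82 members were so separated.

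Of the regulators of mitochondrial biogenesis, 10 of 20 lay above 0 (56.4% of all genes), the median was 0.0072 (0.023 over all genes), 0 had NTA arrays all above water and 1 had them all below (13.0% and 7.25% of all genes). Nrf1, Gabpa, Tfam and Esrra, which drive transcription of nuclear and mitochondrial genes of the chain, differed by -0.029, -0.0052, -0.024 and 0.018. Ppargc1a, a transcriptional coactivator in mitochondrial biogenesis, was at -0.38, -0.41 and -0.24 in water and -0.74, -0.55 and -0.58 in NTA. Its NTA arrays all lay below the water arrays, by -0.28 (SE 0.084, limma adjusted p = 0.311). Podocyte markers, also from the cortex, lay below 0 in 7 of 7 with a median of -0.10, and endothelial markers lay above 0 in 2 of 7 with a median of -0.088. Fibroblast and smooth muscle markers lay above 0 in 6 of 7 (median 0.091), macrophage and leukocyte markers in 4 of 7 (0.106) and collecting duct markers in 4 of 8 (0.021). The proximal tubule median of -0.0024 became -0.105 after quantile normalization. Thick ascending limb and distal tubule markers lay above 0 in 3 of 5, from -0.12 to 0.14, with a median of 0.131 (0.048 after quantile normalization) and overlapping groups in each. The part of cell composition in the members' differences was not tested.

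**Figure D5:**
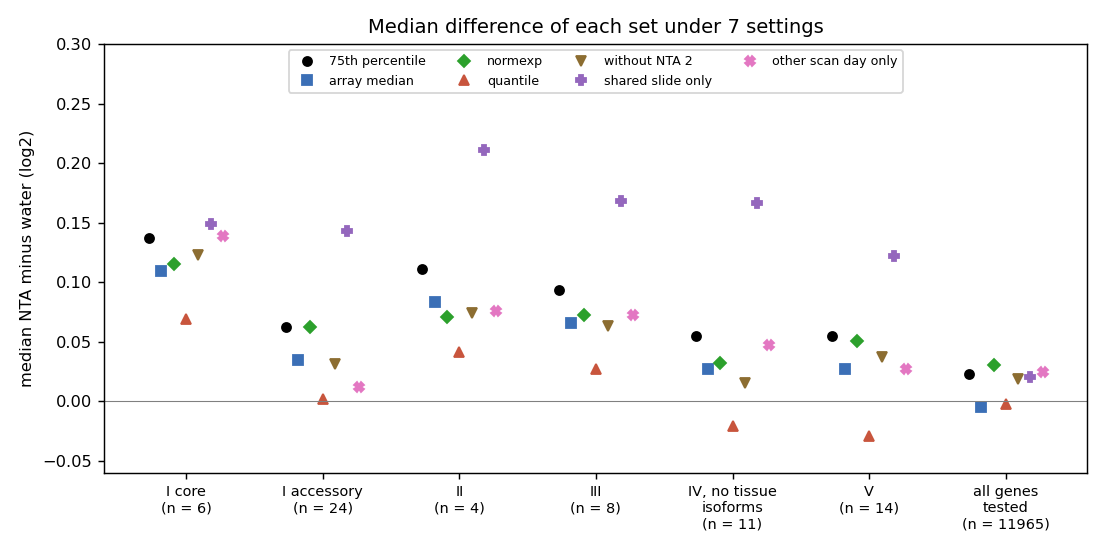
Median NTA minus water difference (log2) of each set of complex members and of all genes tested under 7 settings: scaling by the 75th percentile, by the array median, normexp correction, quantile normalization, without NTA 2, in the shared slide alone, and in the arrays of the other scan day. The 6 complex I core subunits stay between 0.069 and 0.149 in all 7, whereas the medians of complex IV without tissue isoforms and of complex V lie below 0 after quantile normalization.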

How the data were processed

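Per the labels' protocols, Cy3-labelled cRNA from renal cortex RNA was hybridised to 1-colour Agilent arrays, and the authors deposited Agilent Feature Extraction output (version 10.7.1.1 per the file headers, 10.7 per the submitters' processing notes). The intensity values used are the deposited background-corrected processed signals, not normalized between arrays. The authors also deposited a table in which each value is a ratio of processed signal to 1 constant per array, used as an alternative.

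The log2 signal minus each array's 75th percentile over 61657 probes that are not controls was analysed. Probes were named through RefSeq transcripts (27460 with 1 symbol). A probe was kept if well above background on all 3 arrays of a group, and a gene was its brightest kept probe. Outlier-marked spots were left out, which affected 8 of the genes tested and no member. NTA was compared with water in limma 3.58.1 (R 4.3.3, lmFit and eBayes, two-sided), with Benjamini-Hochberg adjustment over 11965 genes at 0.05, and the fit was tested on simulated data. SE is the model's. The number of arrays limits the precision.

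The members, lists and tests were chosen with earlier results of these data known. Named genes were, per complex, the 3 brightest subunits and the smallest p in each direction, the complex II subunits, Cyc1, Uqcrfs1, the complex IV isoforms, Ndufa4, Ndufa4l2, Cox7a2l, Atp5if1 and members past 0.3 in size, and, per other list, members past the threshold or else the 2 brightest, with Cycs, Ppargc1a, Nrf1, Gabpa, Tfam and Esrra. Other genes were chosen after their values were seen. A member counted among all members and complex I subunits is not reported here by name, nor drawn singly, and is not in the core set. The normexp alternative (offset 50) used median rather than mean spot signal. No coordinates of array probes are given, as the array design and the RefSeq table use different builds.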

Additional observations from a re-analysis of the deposited data

How the results depend on the processing

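Members past the threshold numbered 0 under every alternative run. All genes past it numbered 9, and 0 with the replicate block, quantile normalization, array median scaling, no background filter or scan day as a fixed block, 5 with slide as a fixed block, 20 with normexp correction, 38 with trend and robust eBayes, and 0 to 5 leaving out 1 array (5 without NTA 2). The replicate numbers were not used as pairs in the main fit. Same-numbered deviations correlated at 0.073, -0.092 and 0.036. Water 1 and NTA 2, which share a slide and scan day, correlated at 0.039. Such values cannot decide whether the animals were paired, since a known shared slide did not raise them. Slide as a random block had an estimated correlation of -0.071. Of all genes with an unadjusted p under 0.05, 63.2% were higher in NTA, and 52.2% after quantile normalization, 50.4% with array median scaling and 66.8% with normexp.

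The medians (all members 0.085, complexes I to V 0.082, 0.111, 0.094, 0.055 and 0.055) moved with quantile normalization to 0.025 for all members and 0.032, 0.041, 0.027, -0.0034 and -0.029 for complexes I to V. A fixed slide term, which equals the shared slide alone, gave 0.160 for all members and 0.150, 0.211, 0.168, 0.176 and 0.122 for complexes I to V. Members with NTA arrays all above water numbered 31, and 11 with quantile and 20 with array median scaling. Those all below numbered 1, and 7 and 2 in the same settings. The within-batch values, these counts under other scalings and without NTA 2 were added after seeing the data. The authors' table gave a median of 0.084.

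Of 630 values of 35 named members, 609 kept their direction and 21, over 15 members, turned. With quantile normalization these were Atp5f1e (-0.035), Atp5me (-0.0995), Cox4i1 (-0.033), Cox5b (-0.031), Cox6a1 (-0.0034), Cox7a2 (-0.021), Ndufa5 (-0.029), Ndufb3 (-0.039) and Uqcr10 (-0.076). With normexp they were Atp5me (-0.028) and Uqcrfs1 (-0.014), with array median scaling Atp5me (-0.010), with the mean of probes Ndufv3 (0.016), and with slide as a fixed block Atp5mk (0.048) and Cox4i2 (0.248). Leaving out 1 array gave Cox4i2 from -0.21 to 0.065 (above 0 without NTA 1), and, each below 0 without NTA 2 alone, Atp5me from -0.022 to 0.047, Cox6a1 from -0.0040 to 0.086, Cox6a2 from -0.069 to 0.13, Cox6b2 from -0.00063 to 0.16 and Cox7a2 from -0.033 to 0.11. The cause was not tested.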
